A study of Homo sapiens with 12 samples.

Results

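The genes described here encode the G1 cyclins, their kinases and the inhibitors of those kinases. They are the 10 genes CCND1, CCND2, CCND3, CCNE1, CCNE2, CDK4, CDK6, CDKN1A, CDKN1B and CDKN2C, taken by name from a deposited table of raw read counts that lists 55882 gene symbols. The 10 genes were chosen with earlier results of these data known. All 10 were in the table, and 9 of them were among the 14799 genes with enough counts to be tested. CCND2 was not, with 4 counts over all libraries.

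The counts come from RNA sequencing of T47D, a human line of estrogen receptor-positive breast cancer cells. The 4 groups, each of 3 libraries, were T47D cells with ectopic HOXB13 given 2 nM estradiol, the same HOXB13 cells given the ethanol vehicle, control cells given 2 nM estradiol, and control cells given the vehicle. HOXB13 is a homeobox transcription factor. Treatment lasted 24 h in every group and followed 72 h in medium with 10% charcoal-stripped serum, a serum low in steroids, so the vehicle groups were also hormone-deprived. In the labels, the control cells are named WT or normal. The labels do not say whether these cells carried an empty vector, what drives HOXB13, whether the HOXB13 cells are a clone, or whether the libraries of a group came from separate cultures, so each p-value reflects only how these libraries spread, which may be technical.

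In G1, the D-type cyclins bind CDK4 or CDK6, and the complexes phosphorylate the retinoblastoma protein RB, which releases E2F transcription factors. Cyclin E with CDK2 then adds to this phosphorylation, and the genes for the E-type cyclins are themselves E2F targets. INK4 inhibitors such as p18 bind CDK4 and CDK6, while p21 and p27 bind cyclin and kinase complexes and inhibit CDK2. In breast cancer cells with the estrogen receptor, estradiol is known for driving cells from G1 into S phase, and CCND1 is a well-studied target of the receptor.

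RefSeq promoter entries on GRCh38.p14 were matched by symbol for 7 of the 10 genes, with 12 promoters in all. CCND1, CCND2 and CCNE2 were not among them, so no motif was searched in their promoters. CCND3, CDKN2C and CDK6 each had more than 1 promoter among the 12. The 250 bases before the start are shown for CCNE1, whose mRNA rose with estradiol in both cell types, for CDK4, whose call depended on the fit, and for CDKN1A, the gene with the lowest p between HOXB13 and control cells. Each is written 5′ to 3′ on the gene's strand, and capitals mark the GC box GGGCGG on either strand.
CCNE1 promoter, GRCh38.p14 chr19:29811741-29811990 (plus strand): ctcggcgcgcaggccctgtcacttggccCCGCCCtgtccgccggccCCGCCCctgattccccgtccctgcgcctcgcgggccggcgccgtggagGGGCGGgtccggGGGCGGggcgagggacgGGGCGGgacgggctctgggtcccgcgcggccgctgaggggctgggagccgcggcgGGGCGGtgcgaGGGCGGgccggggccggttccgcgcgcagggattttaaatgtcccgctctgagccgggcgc
CDK4 promoter, GRCh38.p14 chr12:57752311-57752560 (minus strand): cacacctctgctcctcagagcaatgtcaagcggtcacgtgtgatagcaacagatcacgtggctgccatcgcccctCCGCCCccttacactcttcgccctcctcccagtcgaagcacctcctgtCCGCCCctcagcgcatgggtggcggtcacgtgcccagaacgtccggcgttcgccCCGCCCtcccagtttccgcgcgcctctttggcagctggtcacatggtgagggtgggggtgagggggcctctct
CDKN1A promoter, GRCh38.p14 chr6:36678464-36678713 (plus strand): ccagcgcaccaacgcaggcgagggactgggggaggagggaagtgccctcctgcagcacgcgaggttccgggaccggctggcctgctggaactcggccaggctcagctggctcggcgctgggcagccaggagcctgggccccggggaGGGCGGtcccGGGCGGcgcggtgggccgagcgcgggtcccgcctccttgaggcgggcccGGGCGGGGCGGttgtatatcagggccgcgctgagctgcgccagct
The CCNE1 stretch held 7 GC boxes and the CDK4 stretch held 3. The CDKN1A stretch held 4, of which 1 pair overlapped. GC boxes were in 9 of the 12 member promoters and in 42.6% of all 35116 RefSeq promoters of that length. None of the 12 held the 8-base E2F motifs TTTCCCGC, TTTCGCGC, TTTGCCGC or TTTGGCGC on either strand, which were in 2.79% of all promoters. The full estrogen response element, GGTCA and TGACC spaced by 3 bases, was in 0 of the 12 and in 0.0399% of all promoters. These are matches of letters in these windows only.

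Total counts ranged from 17679824 to 21385996 per library, and 18556 to 19337 genes had at least 1 count. HOXB13 had 110, 92 and 97 counts in HOXB13 cells with estradiol, 112, 106 and 108 in HOXB13 cells with vehicle, 0 in each control library with estradiol, and 2, 0 and 1 in control libraries with vehicle, so every HOXB13 library was above every control library. In a principal component analysis, estradiol and vehicle were separated on the first component (35.5% of the variance). The second, with 17.8%, parted the 4 libraries numbered 2 from the rest, and the third, with 8.37%, parted HOXB13 from control cells. What a number stands for is not stated in the labels. The 8 epithelial markers summed to 18202 to 25239 CPM over all libraries. The 13 non-epithelial markers in the table summed to 61.2 to 69.7 CPM in HOXB13 cells with estradiol, 59.3 to 65.8 in HOXB13 cells with vehicle, 67.1 to 73.3 in control cells with estradiol and 69.2 to 73.8 in control cells with vehicle. Of this sum COL1A1 gave 51.5 to 64.1 CPM in each library, CDH5 was at 0 throughout and PTPRC reached at most 0.211 CPM. In bulk RNA, fewer cells that express a gene and less of its RNA per cell cannot be told apart.

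Levels below are CPM, read counts per 1000000 of the TMM-scaled library size. Changes are log2 fold changes from edgeR's quasi-likelihood test with Benjamini-Hochberg adjustment over all 14799 genes, given with standard errors, and a gene is called at an adjusted p under 0.05. In HOXB13 cells, 6 of the 9 tested genes rose with estradiol and 0 fell, where 7.22% of all tested genes rose and 6.38% fell. The 6 became 3 when any 1 HOXB13 library other than vehicle library 2 was left out, and also when the fit held only the compared groups. The shares of all tested genes called in those fits, and in the leave-1-out fits below, are not given here. Fewer calls among these genes and fewer calls over all genes therefore cannot be told apart. In control cells 5 of 9 rose and 0 fell, where 8.65% of all tested genes rose and 6.72% fell. CCND1, CCND3, CCNE1, CCNE2 and CDKN2C rose in both cell types, and CDK4 was called in HOXB13 cells and did not pass in control cells, while its response differed between the cell types by 0.02 ± 0.17 on the log2 scale. The median log2 fold change of the 9 genes was 0.38 in HOXB13 cells and 0.58 in control cells, beside −0.01 over all tested genes in each. With the replicate number as a block, 6 of the 9 rose in HOXB13 cells, where 15.5% of all tested genes rose, and 7 of the 9 rose in control cells, where 17.5% rose. CDK4 was called in both cell types with that block, so its call differed between cell types only in some fits.

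**Figure D1:**
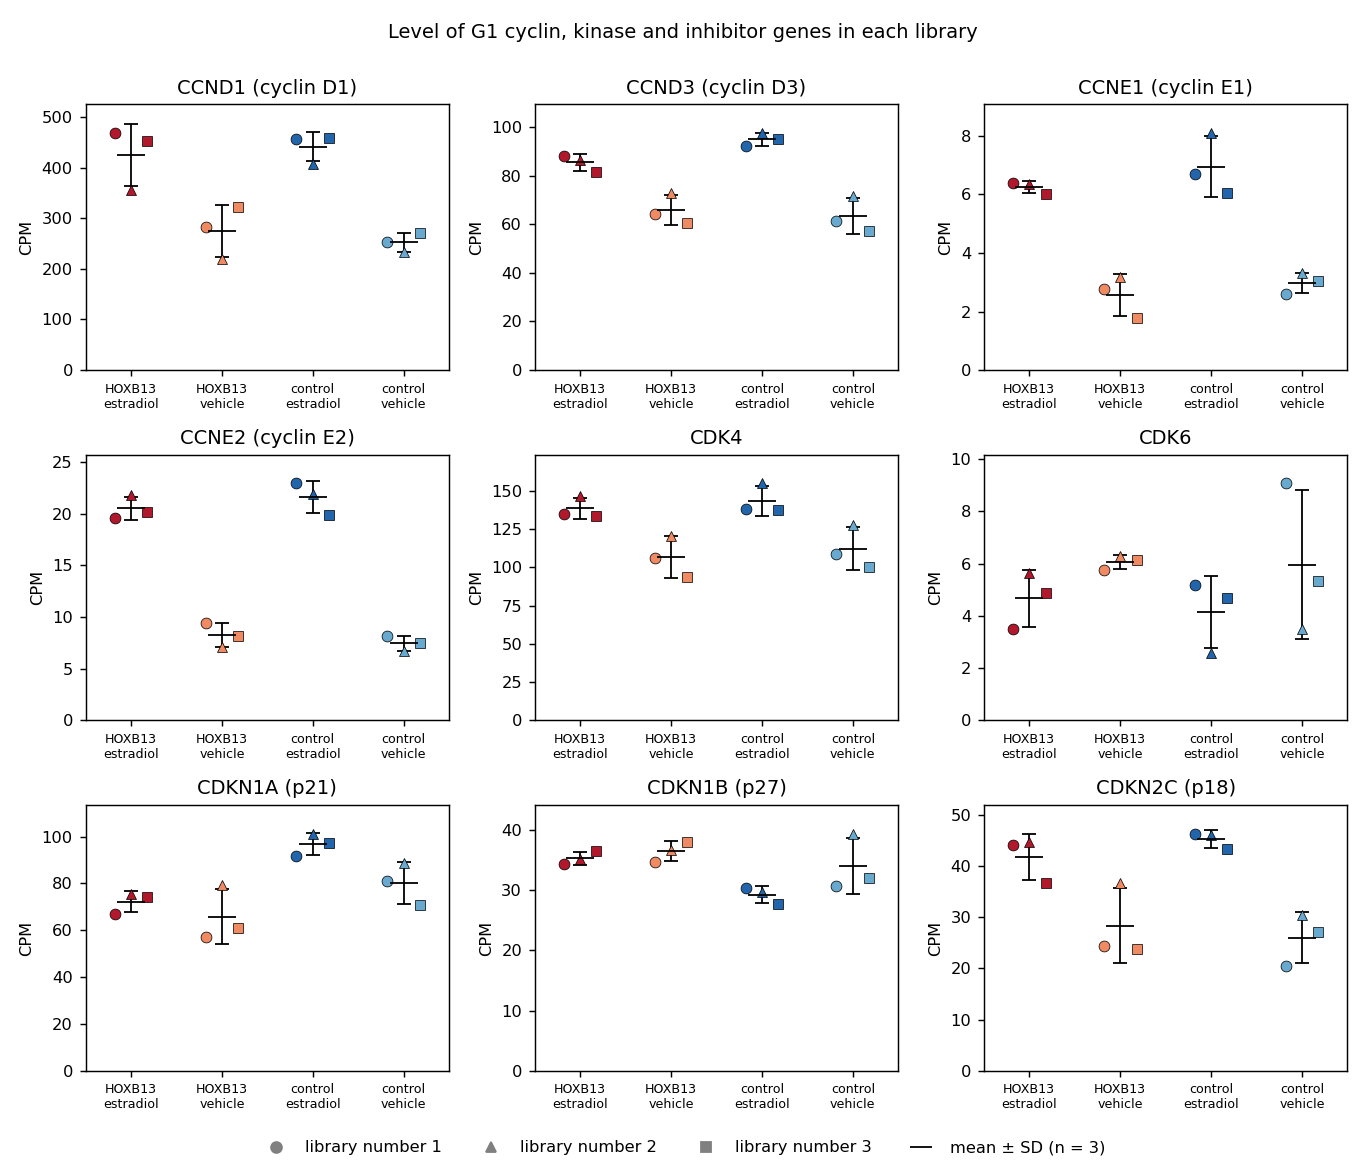
CPM of the 9 tested genes in each of the 12 libraries, by group, with the mean and SD of 3 libraries as black lines and a marker shape for each library number. The estradiol libraries of CCND1, CCND3, CCNE1 and CCNE2 lie above the vehicle libraries in both cell types.

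Among the D-type cyclins, CCND1 encodes cyclin D1, an activating partner of CDK4 and CDK6. It had 469, 356 and 453 CPM in HOXB13 cells with estradiol, against 282, 220 and 323 CPM in HOXB13 cells with vehicle. In control cells it had 457, 408 and 459 CPM with estradiol, against 253, 232 and 271 CPM with vehicle. The estradiol and vehicle libraries did not overlap in either cell type, and library 2 was the lowest of every group. CCND1 rose by 0.63 ± 0.14 in HOXB13 cells on the log2 scale (1.55-fold, edgeR's quasi-likelihood test, adjusted p = 0.00824) and by 0.81 ± 0.14 in control cells (1.75-fold, adjusted p = 0.00141).

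CCND3 encodes cyclin D3, which binds the same kinases. It had 88.1, 86.5 and 81.6 CPM in HOXB13 cells with estradiol, against 64.4, 72.8 and 60.6 CPM with vehicle, and 92.3, 97.6 and 95.1 CPM in control cells with estradiol, against 61.4, 71.8 and 57.3 CPM with vehicle. The treatments were separate in both cell types, with a smaller gap in HOXB13 cells. CCND3 rose by 0.37 ± 0.11 in HOXB13 cells (edgeR's quasi-likelihood test, adjusted p = 0.0318) and by 0.58 ± 0.11 in control cells (adjusted p = 0.00193). The call in HOXB13 cells was lost, at adjusted p = 0.0569 to 0.121, when any 1 of the 6 HOXB13 libraries other than vehicle library 2 was left out. With the replicate block CCND3 was called there (edgeR's quasi-likelihood test, adjusted p = 0.000402), where 15.5% of all tested genes rose. Between HOXB13 libraries of the same number, estradiol minus vehicle was 0.45, 0.25 and 0.43 on the log2 scale.

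CCND2, which encodes cyclin D2, had 1 count in HOXB13 estradiol library 2, 0 in every HOXB13 vehicle library, 1 in control estradiol library 2 and 2 in control vehicle library 1. A chosen floor of 3 counts equals 0.144 to 0.162 CPM in these libraries, and every CCND2 count was below it. At so few counts, absence and a very low level cannot be told apart. Its antisense neighbours CCND2-AS1 and CCND2-AS2 had 0 counts.

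The E-type cyclins had the highest fold changes of the 9 genes. CCNE1 encodes cyclin E1, a partner of CDK2, and had 6.37, 6.36 and 6.01 CPM in HOXB13 cells with estradiol, against 2.78, 3.17 and 1.78 CPM with vehicle. In control cells it had 6.69, 8.10 and 6.06 CPM with estradiol, against 2.61, 3.31 and 3.03 CPM with vehicle. Every estradiol library was above every vehicle library. The counts behind these levels were 34 to 157 per library. CCNE1 rose by 1.28 ± 0.22 in HOXB13 cells (2.42-fold, edgeR's quasi-likelihood test, adjusted p = 0.00156) and by 1.22 ± 0.22 in control cells (2.33-fold, adjusted p = 0.0015).

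CCNE2 encodes cyclin E2, which also activates CDK2. It had 19.6, 21.8 and 20.2 CPM in HOXB13 cells with estradiol, against 9.43, 7.13 and 8.16 CPM with vehicle. In control cells it had 23.0, 21.9 and 19.9 CPM with estradiol, against 8.12, 6.71 and 7.52 CPM with vehicle. The groups were far apart compared with their spread. CCNE2 rose by 1.32 ± 0.14 in HOXB13 cells (2.49-fold, edgeR's quasi-likelihood test, adjusted p = 4.28e-05) and by 1.54 ± 0.14 in control cells (2.90-fold, adjusted p = 7.81e-06).

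Of the G1 kinases, CDK4, a partner of the D-type cyclins, had 135, 146 and 134 CPM in HOXB13 cells with estradiol, against 106, 120 and 93.3 CPM with vehicle, and 138, 155 and 137 CPM in control cells with estradiol, against 109, 128 and 99.8 CPM with vehicle. Library 2 was the highest of its group throughout, and the treatments did not overlap in either cell type. The log2 fold change was 0.38 ± 0.12 in HOXB13 cells (edgeR's quasi-likelihood test, adjusted p = 0.0483) and 0.35 ± 0.12 in control cells (adjusted p = 0.0574). The call in HOXB13 cells was lost, at adjusted p = 0.0879 to 0.179, without any 1 of the 6 HOXB13 libraries other than vehicle library 2. With the replicate block CDK4 was called in HOXB13 cells (edgeR's quasi-likelihood test, adjusted p = 0.000138). In control cells CDK4 was called with the replicate block (adjusted p = 0.000236), with DESeq2 (adjusted p = 0.0358), without control vehicle library 2 (adjusted p = 0.0175) and without the 4 libraries numbered 2 (adjusted p = 0.00351).

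TSPAN31, which overlaps CDK4 on the opposite strand, had 57.2 ± 7.36 CPM in HOXB13 cells with estradiol, 70.7 ± 5.35 in HOXB13 cells with vehicle, 56.3 ± 4.64 in control cells with estradiol and 69.1 ± 6.69 in control cells with vehicle (SD, n = 3 each). Its log2 fold change with estradiol was −0.31 in HOXB13 cells and −0.30 in control cells, not called (edgeR's quasi-likelihood test, adjusted p = 0.115 and 0.118; with the block 0.00358 and 0.00468). The strand setting of the counting is not given in the sources used here, so reads of CDK4 and TSPAN31 may not be told apart where the genes overlap.

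CDK6, the other kinase of the D-type cyclins, had 3.51, 5.63 and 4.87 CPM in HOXB13 cells with estradiol, against 5.76, 6.29 and 6.12 CPM with vehicle. In control cells it had 5.18, 2.58 and 4.70 CPM with estradiol, against 9.08, 3.497 and 5.32 CPM with vehicle. The libraries of a control group differed among themselves by more than the treatments did, while in HOXB13 cells the treatments did not overlap. Between libraries of the same number, estradiol minus vehicle was −0.72, −0.16 and −0.33 in HOXB13 cells on the log2 scale. In control cells it was −0.81, −0.44 and −0.18. The log2 fold changes of CDK6 were −0.37 ± 0.32 in HOXB13 cells and −0.52 ± 0.32 in control cells, neither called (edgeR's quasi-likelihood test, adjusted p = 0.52 and 0.325), with 95% intervals of −1.06 to 0.32 and −1.21 to 0.17.

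Of the inhibitors, CDKN2C encodes p18, an INK4 protein that binds CDK4 and CDK6. It had 44.1, 44.8 and 36.6 CPM in HOXB13 cells with estradiol, against 24.4, 36.8 and 23.8 CPM with vehicle, and 46.3, 46.1 and 43.2 CPM in control cells with estradiol, against 20.5, 30.4 and 27.1 CPM with vehicle. In HOXB13 cells the highest vehicle library just passed the lowest estradiol library, while in control cells the treatments were apart. CDKN2C rose by 0.56 ± 0.17 in HOXB13 cells (edgeR's quasi-likelihood test, adjusted p = 0.0463) and by 0.80 ± 0.17 in control cells (adjusted p = 0.00623). The call in HOXB13 cells was lost, at adjusted p = 0.0550 to 0.183, without any 1 of the 6 HOXB13 libraries other than vehicle library 2. With the replicate block CDKN2C was called there (edgeR's quasi-likelihood test, adjusted p = 0.00058), where 15.5% of all tested genes rose. Between HOXB13 libraries of the same number, estradiol minus vehicle was 0.86, 0.28 and 0.62 on the log2 scale.

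CDKN1A encodes p21, which binds cyclin and CDK complexes and is a known p53 target. It had 67.1, 75.5 and 74.2 CPM in HOXB13 cells with estradiol, against 57.0, 79.2 and 61.1 CPM with vehicle, and 91.9, 101 and 97.3 CPM in control cells with estradiol, against 81.2, 88.9 and 71.0 CPM with vehicle. The treatments overlapped in HOXB13 cells and did not in control cells. The log2 fold change with estradiol was 0.14 ± 0.13 in HOXB13 cells and 0.27 ± 0.13 in control cells, neither called (edgeR's quasi-likelihood test, adjusted p = 0.565 and 0.185). In control cells it was called with the replicate block (0.27, adjusted p = 0.0125) and without the libraries numbered 2 (0.32, adjusted p = 0.0272).

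CDKN1B encodes p27, a further inhibitor of cyclin and CDK complexes. It had 34.3, 35.1 and 36.5 CPM in HOXB13 cells with estradiol, against 34.6, 36.7 and 38.0 CPM with vehicle. In control cells it had 30.4, 29.7 and 27.7 CPM with estradiol, against 30.6, 39.4 and 31.9 CPM with vehicle. The treatments overlapped in HOXB13 cells and were barely apart in control cells, where vehicle library 2 stood high. Neither log2 fold change was called, at −0.05 ± 0.11 in HOXB13 cells and −0.22 ± 0.11 in control cells (edgeR's quasi-likelihood test, adjusted p = 0.846 and 0.23).

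**Figure D2:**
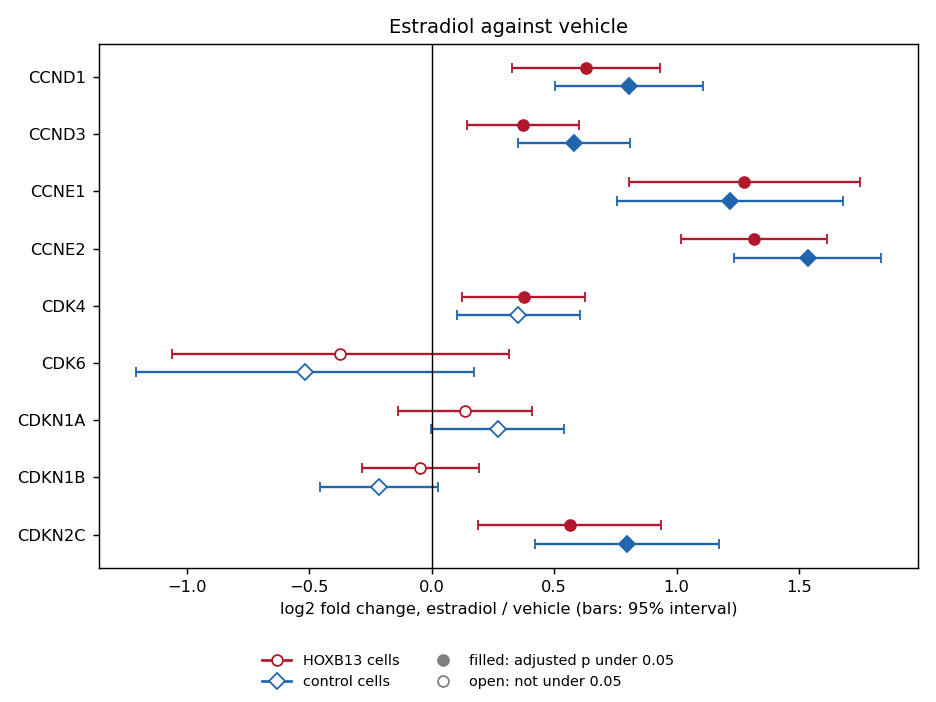
Log2 fold change of estradiol over vehicle with its 95% interval for the 9 tested genes, in HOXB13 cells and in control cells. Filled points have an adjusted p under 0.05: 6 genes in HOXB13 cells and 5 in control cells, with CCNE1 and CCNE2 farthest to the right.

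Without the 4 libraries numbered 2, which leaves 2 libraries a group, the same 6 genes were called in HOXB13 cells, at log2 fold changes of 0.61 for CCND1, 0.45 for CCND3, 1.44 for CCNE1, 1.18 for CCNE2, 0.44 for CDK4 and 0.75 for CDKN2C. In control cells the values were 0.81 for CCND1, 0.66 for CCND3, 1.18 for CCNE1, 1.46 for CCNE2, 0.40 for CDK4, 0.91 for CDKN2C and 0.32 for CDKN1A, all called. CCND1, CCND3, CCNE1, CCNE2 and CDKN2C were thus called with and without those libraries in both cell types. Without them, 11.7% of all tested genes rose in HOXB13 cells and 12.9% in control cells. With all 12 libraries these shares were 7.22% and 8.65%, so calls became more frequent over all genes too.

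The estradiol responses of HOXB13 and control cells were compared directly. The difference, HOXB13 minus control, was called for 0 of the 9 genes, as for 0% of all tested genes in each direction (edgeR's quasi-likelihood test, 219 genes at an unadjusted p under 0.05, and 0 genes called by DESeq2 or limma-voom). For the 8 tested genes other than CDK6 it ran between −0.23 for CDKN2C and 0.17 for CDKN1B on the log2 scale. The outermost limits of the 95% intervals were −0.76 and 0.71, so the intervals included differences up to these limits. The median over the 9 genes was −0.13, beside −0.01 over all tested genes.

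Between HOXB13 and control cells, none of the 9 genes was called in the fit without the replicate block, either in estradiol or in vehicle. In estradiol 0.0135% of all tested genes were higher and 0% lower, which is 2 genes, and in vehicle 0.0203% were higher and 0% lower, which is 3 genes. With DESeq2 the counts over all genes were 11 higher and 9 lower in estradiol, and 13 higher and 7 lower in vehicle, while 489 genes in estradiol and 559 in vehicle had an unadjusted p under 0.05. The replicate block called 21 higher and 37 lower in estradiol, and 28 higher and 32 lower in vehicle. CDKN1A was among the lower genes in estradiol with that block. The median log2 difference of the 9 genes was −0.07 in estradiol and 0.05 in vehicle, beside −0.01 in estradiol and 0.00 in vehicle over all tested genes.

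CDKN1A had the lowest p of the 9 in each treatment. In estradiol its levels were 67.1, 75.5 and 74.2 CPM in HOXB13 cells, against 91.9, 101 and 97.3 CPM in control cells, and the groups did not overlap. The log2 difference was −0.42 ± 0.13, with a 95% interval of −0.70 to −0.15 and an unadjusted p of 0.00521, which did not pass edgeR's quasi-likelihood test after adjustment (adjusted p = 0.999). Across libraries of the same number the difference was −0.45, −0.42 and −0.39. CCND3, CCNE1, CDK4 and CDKN2C were likewise lower in 3 of 3 such comparisons in estradiol, so the sign did not set CDKN1A apart. With the replicate number as a block, it was called lower (−0.42, adjusted p = 0.0149), 1 of the 9 genes where 0.25% of all tested genes were lower, 37 in number. DESeq2 gave an adjusted p of 0.522, and without the libraries numbered 2 it was 0.165. In vehicle the groups overlapped, the same-number differences were −0.51, −0.17 and −0.22, and the log2 difference was −0.29 ± 0.13 (95% interval −0.56 to −0.01, adjusted p = 0.99985 under edgeR's quasi-likelihood test and 0.149 under the block).

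CDKN1B was the other inhibitor with separate groups. In estradiol its HOXB13 libraries had 34.3, 35.1 and 36.5 CPM, against 30.4, 29.7 and 27.7 CPM in control libraries, higher in 3 of 3 same-number comparisons. The log2 difference was 0.27 ± 0.11 (unadjusted p = 0.0306, adjusted p = 0.999 under edgeR's quasi-likelihood test, 0.271 with the block). In vehicle it was 0.10 ± 0.11, and the groups overlapped. CCND3 was also apart in estradiol, with a log2 difference of −0.15 ± 0.11 (edgeR's quasi-likelihood test, adjusted p = 0.999). The share of all tested genes with separate groups was not counted, here or for estradiol against vehicle. Separation of 3 from 3 libraries therefore does not set a gene apart by itself.

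**Figure D3:**
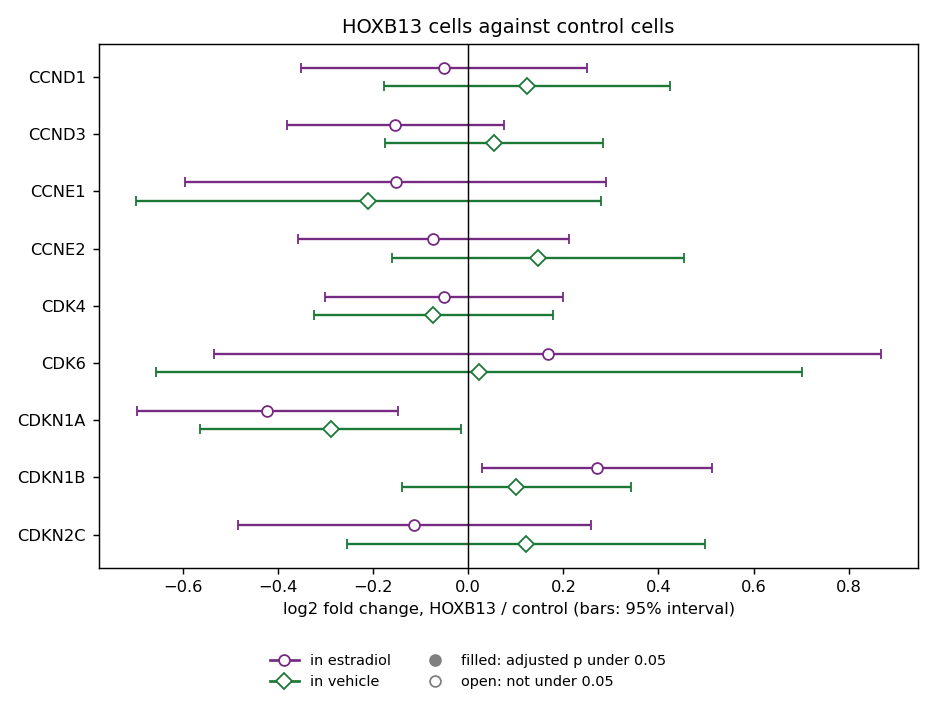
Log2 fold change of HOXB13 over control cells with its 95% interval for the 9 tested genes, in estradiol and in vehicle. All points are open, none with an adjusted p under 0.05, and CDKN1A lies farthest to the left, at −0.42 in estradiol and −0.29 in vehicle.

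Leaving out CDK6, the log2 differences of the 8 other tested genes ran from −0.42 to 0.27 in estradiol, with interval limits from −0.70 to 0.51, and from −0.29 to 0.15 in vehicle, with limits from −0.70 to 0.50. CDK6 had the widest intervals of the 9 genes, and its log2 difference was 0.17 ± 0.33 in estradiol and 0.02 ± 0.32 in vehicle. Its same-number differences in estradiol were −0.56, 1.13 and 0.05, so the libraries pointed in opposite directions.

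**Figure D4:**
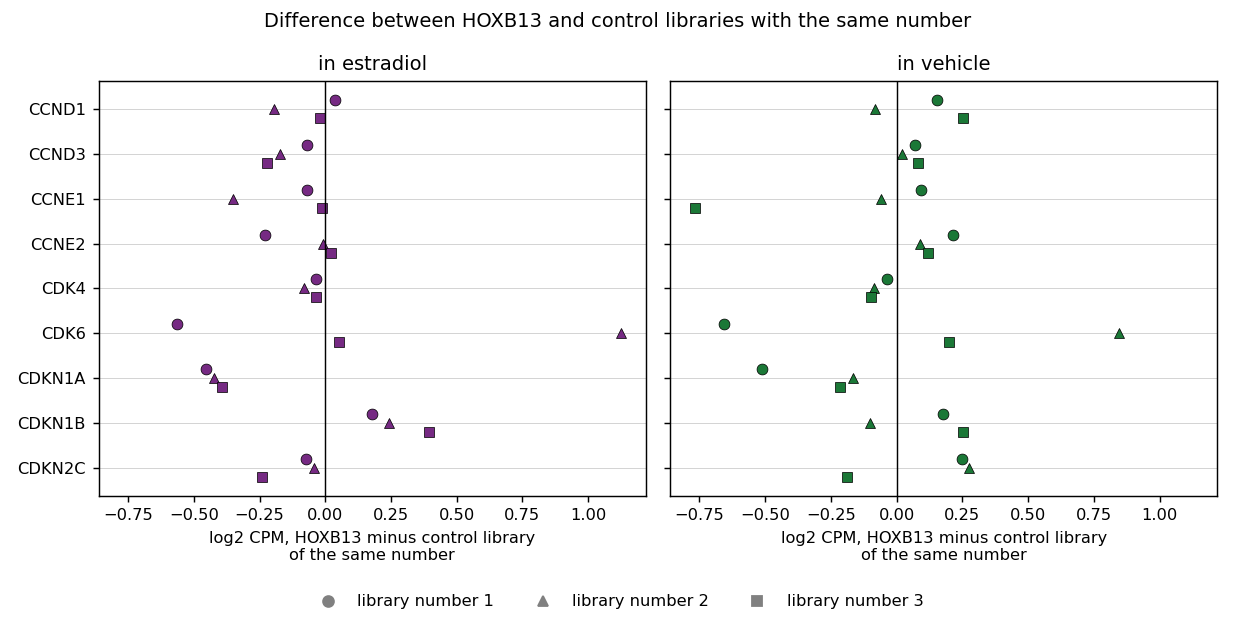
Difference in log2 CPM, HOXB13 minus the control library of the same number, for the 9 tested genes in estradiol and in vehicle, with a marker shape for each number. The CDKN1A and CDK4 points lie left of 0 in both treatments, and those of CDK6 spread from −0.56 to 1.13 in estradiol.

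Set per kilobase of exon, from GENCODE 29 exon lengths, CCND1 was the most abundant of the 10 genes in every group. Its level was 96.7 ± 13.9 CPM per kb in HOXB13 cells with estradiol, 62.4 ± 11.8 in HOXB13 cells with vehicle, 100.2 ± 6.60 in control cells with estradiol and 57.3 ± 4.42 in control cells with vehicle (SD, n = 3). CDK4 came next. In the vehicle groups it had 51.4 ± 6.55 CPM per kb in HOXB13 cells and 54.0 ± 6.88 in control cells, where its libraries overlapped those of CCND1. This overlap depended on the exon lengths: with all annotated isoforms CDK4 had 33.7 CPM per kb against 56.9 for CCND1 in HOXB13 cells with vehicle, and 35.4 against 52.2 in control cells with vehicle, and the libraries did not overlap. CDKN1A followed and then CCND3, in every group. CDKN1B and CDKN2C came next and changed places: CDKN2C was above CDKN1B in control cells with estradiol, at 13.6 ± 0.522 against 11.01 ± 0.516 CPM per kb, and below it in control cells with vehicle, at 7.84 ± 1.52 against 12.8 ± 1.77. CCNE2, CCNE1, CDK6 and CCND2 closed the order in every group. The lengths are from a GRCh38 annotation and the counts from GRCh37, and with all annotated isoforms CDKN1B stood above CCND3 in the vehicle groups.

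**Figure D5:**
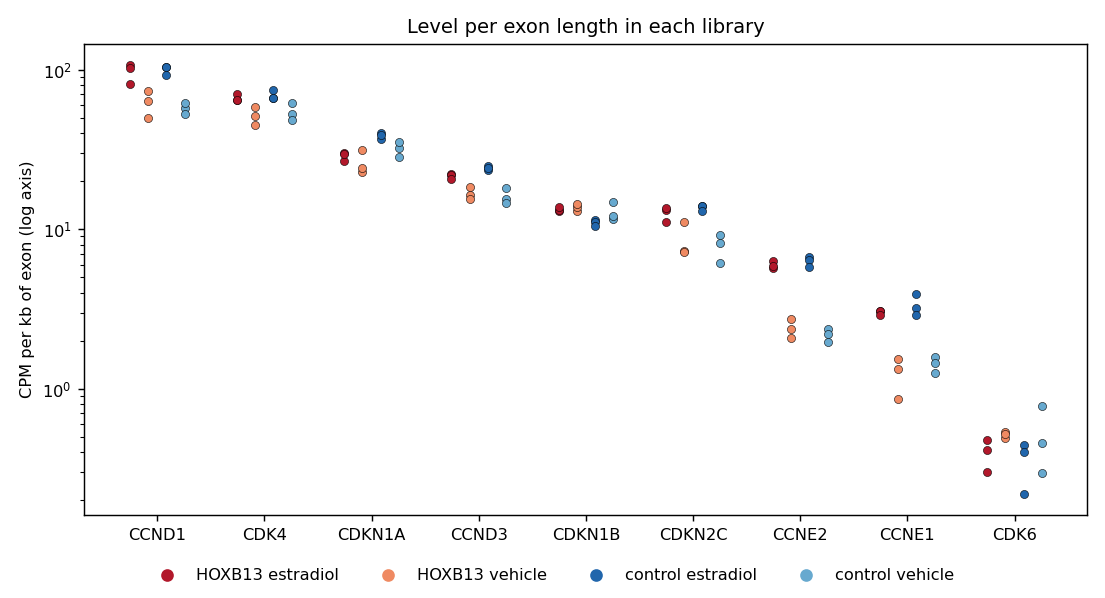
CPM per kb of exon (log axis) of the 9 tested genes in each library, coloured by group. CCND1 and CDK4 lie highest, and CDK6 is the lowest of the tested genes.

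The genes whose pattern over the 12 libraries was most like that of a called member were found by the root mean square difference of log2 CPM, each gene centred on its own mean, over 12014 genes. For CCND1 they were NCAPD3, UCK2 and TOP2A, at 0.0859, 0.0884 and 0.0905. For CCNE2 they were E2F1 at 0.134, FKBP4 at 0.148 and MAPT at 0.155, and for CCNE1 they were SPHK1, GNG11 and NME1. THAP7, SLC10A3 and ALYREF were nearest to CCND3, PSMG1, DNAJC9 and PHF19 to CDKN2C, and PEA15, C1orf43 and MRPS6 to CDK4. This is a description of 12 libraries that share their treatments.

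Other genes of the pathway were counted in lists. The lists were chosen with earlier results of these data known, so their counts beside the shares over all genes are a description only. Of 18 tested genes of the RB and E2F group, 9 rose in HOXB13 cells with estradiol (7 to 8 when 1 library was left out) and 9 rose in control cells (7 to 9), with 0 lower in each. Of all tested genes, 7.22% rose and 6.38% fell in HOXB13 cells, and 8.65% rose and 6.72% fell in control cells. The median log2 fold change of the 18 genes was 0.45 in HOXB13 cells and 0.46 in control cells, beside −0.01 over all tested genes in each. E2F1, an activating E2F, had 99.5 ± 9.25 CPM in HOXB13 cells with estradiol against 39.2 ± 1.495 with vehicle, and 108.6 ± 4.34 CPM in control cells with estradiol against 38.2 ± 1.40 with vehicle (SD, n = 3). Its log2 fold change was 1.34 ± 0.10 in HOXB13 cells and 1.51 ± 0.10 in control cells. E2F2, a second activating E2F, rose by 1.02 in HOXB13 cells and by 1.25 in control cells. Of the repressive E2Fs, E2F7 rose by 1.01 in HOXB13 cells and by 1.27 in control cells, and E2F8 rose by 1.31 in HOXB13 cells and by 1.14 in control cells. MYBL2, a partner of the MuvB complex, rose by 0.97 in HOXB13 cells and by 1.14 in control cells. The call of E2F7 in HOXB13 cells was lost in 5 of the 6 fits that left out 1 of those libraries (adjusted p up to 0.18, edgeR's quasi-likelihood test). With the replicate block, 9 rose and 1 fell in HOXB13 cells and 11 rose and 2 fell in control cells. The block called 15.5% of all tested genes higher and 15% lower in HOXB13 cells, and 17.5% higher and 16.5% lower in control cells.

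Of 11 other cyclin and CDK genes, 5 rose and 1 fell in HOXB13 cells, and 4 rose and 1 fell in control cells (7 rose with the block). Their median log2 fold changes were 0.24 in HOXB13 cells and 0.29 in control cells. Over all tested genes, 7.22% rose and 6.38% fell in HOXB13 cells, and 8.65% rose (17.5% with the block) and 6.72% fell in control cells. CDK2, the partner of cyclin E, rose by 0.93 ± 0.13 in HOXB13 cells and 0.98 ± 0.13 in control cells. CDK1, the mitotic kinase, rose by 0.94 in HOXB13 cells and by 0.93 in control cells, and CCNA2, which encodes cyclin A2, by 0.76 in HOXB13 cells and by 0.73 in control cells. CCNG2, which encodes cyclin G2, known to be repressed by estrogen, had 35.0 ± 1.68 CPM in HOXB13 cells with estradiol against 73.0 ± 6.37 with vehicle, and 33.0 ± 2.35 CPM in control cells with estradiol against 80.6 ± 10.2 with vehicle (SD, n = 3). It fell by 1.06 on the log2 scale in HOXB13 cells and by 1.29 in control cells. The 5 higher calls in HOXB13 cells were 3 without estradiol library 1, estradiol library 3 or vehicle library 1.

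Among 22 genes for CDK activation and turnover, 7 rose and 1 fell in HOXB13 cells, and 8 rose and 1 fell in control cells, at medians of 0.21 in both. The shares over all tested genes were 7.22% higher and 6.38% lower in HOXB13 cells, and 8.65% higher and 6.72% lower in control cells. DTL, which encodes a substrate receptor of the CRL4 ubiquitin ligase that targets p21, rose by 1.503 in HOXB13 cells and 1.57 in control cells. PIM1, a serine/threonine kinase, rose by 1.46 in HOXB13 cells and by 1.60 in control cells. PKMYT1, an inhibitory kinase of CDK1, rose by 1.24 in HOXB13 cells and by 1.46 in control cells. CDC25A, a phosphatase that activates CDK2, rose by 1.21 in HOXB13 cells and by 1.23 in control cells. The lower gene in both was CUL4B, a scaffold of CRL4 ligases named after its values were seen, at −0.41 in HOXB13 cells and −0.47 in control cells. Its call was lost in 5 of the 6 fits that left out a HOXB13 library and 3 of the 6 that left out a control library. With the block there were 10 higher and 2 lower in HOXB13 cells, and 10 higher and 3 lower in control cells. Its shares over all tested genes were 15.5% higher and 15% lower in HOXB13 cells, and 17.5% higher and 16.5% lower in control cells.

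Of 5 other CDK inhibitor genes, CDKN3 rose by 0.82 and CDKN2B fell by 0.65 in HOXB13 cells, and 0 were called in control cells, with the difference between the responses called for neither gene. The median of the 5 genes was 0.19 in HOXB13 cells and 0.22 in control cells. Neither call was stable: that of CDKN3 was lost without HOXB13 estradiol library 2, vehicle library 1 or vehicle library 3, and that of CDKN2B without any 1 of the 6 HOXB13 libraries other than estradiol library 2. With the block, 2 rose and 1 fell in HOXB13 cells and 1 rose and 2 fell in control cells. Of 16 tested p53 target genes other than CDKN1A, 2 rose and 1 fell in each cell type, at medians of −0.03 in HOXB13 cells and 0.05 in control cells. These counts were near the background, since of all tested genes 7.22% rose and 6.38% fell in HOXB13 cells, and 8.65% rose and 6.72% fell in control cells. AEN, a nuclease, rose by 1.17 in HOXB13 cells and 0.97 in control cells, and FAS, a death receptor, by 0.69 in HOXB13 cells and 0.61 in control cells. BTG2, an antiproliferative gene, fell by 0.51 in HOXB13 cells and by 0.62 in control cells. The FAS call was lost in HOXB13 cells without estradiol library 2, estradiol library 3 or vehicle library 1, and in control cells without estradiol library 2, estradiol library 3, vehicle library 1 or vehicle library 3. The BTG2 call in HOXB13 cells was lost without any 1 library other than estradiol library 3 and without the libraries numbered 2. With the block, 3 of the p53 targets rose and 4 fell in HOXB13 cells, and 4 rose and 3 fell in control cells. The block called 15.5% of all tested genes higher and 15% lower in HOXB13 cells, and 17.5% higher and 16.5% lower in control cells. In these lists 0 genes were called between HOXB13 and control cells, and 0 for the difference of the responses (edgeR's quasi-likelihood test). Of all tested genes, these comparisons called 2 in estradiol, 3 in vehicle and 0 for the difference of the responses.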

How the data were processed

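The authors deposited raw counts by gene symbol, with 1 column for each of the 12 libraries. The submitters' processing notes list STAR, HTSeq, Picard and FastQC, and GRCh37 and hg19 as builds. Neither versions nor annotation nor strandedness is given in the sources used here. Every column was matched to a sample by its label.

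The filterByExpr function of edgeR (groups as given, at least 10 counts, total of at least 15) left 14799 of 55882 symbols, and 30284 symbols had no count. Libraries were scaled by TMM factors of 0.974 to 1.04. Log2 CPM used a prior count of 2. Tests were edgeR 4.0.16 in R 4.3.3, with 1 mean per group fitted to the 12 libraries together. The quasi-likelihood F test was run in its robust form, with p-values adjusted by Benjamini and Hochberg over the 14799 genes and called under 0.05. The script was tested on simulated data. DESeq2 1.42.0, limma-voom (limma 3.58.1), RLE scaling, no filter, the compared groups alone, the replicate block and fits without libraries were the alternatives. Within a group, every pair of libraries differed beyond counting noise, with chi-square values of 6.65 to 42.5 per degree of freedom. Intervals at 95% are confidence limits of the log2 fold change, from the spread between libraries as the fit estimates it.

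Same-numbered libraries deviated together, at correlations of 0.184 to 0.354 for estradiol in HOXB13 cells and 0.132 to 0.457 in control cells. For HOXB13 against control cells they were 0.123 to 0.311 in estradiol and 0.125 to 0.409 in vehicle. All of these were above a minimum of 0.1 set for pairing, while over the interaction the lowest was 0.0926. The main calls do not use this pairing. The replicate block does, and it was run as an alternative for every comparison. The 10 genes and the gene lists were chosen with earlier results of these data known. Genes named from lists are up to 4 per list and comparison with the largest fold change among those called. For likeness, the 3 nearest genes to each called member were named.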

Additional observations from a re-analysis of the deposited data

How the results depend on the processing

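Across DESeq2, limma-voom and RLE scaling, the number of the 9 genes called stayed within 1.5 times in every comparison, and DESeq2 added the call of CDK4 in control cells. With only the compared groups in the fit, 3 genes rose with estradiol in HOXB13 cells (CCND3, CDK4 and CDKN2C were lost, at adjusted p = 0.0520, 0.0626 and 0.0609), and with no filter CCND3 was lost at 0.0591. Leaving out 1 library gave 3 to 6 genes in HOXB13 cells and 5 to 6 in control cells. The shares of all tested genes called in these fits are not given here. The cause was not tested. The replicate block gave 6 genes in HOXB13 cells and 7 in control cells (CDK4 and CDKN1A added), and 1 lower gene between HOXB13 and control cells in estradiol (CDKN1A). It also raised the calls over all genes with estradiol to 2297 higher and 2222 lower in HOXB13 cells and 2594 higher and 2438 lower in control cells, and changed no other call of the 9 genes. Without the libraries numbered 2, the HOXB13 difference in estradiol was 0.015 for CCND1 and −0.23 for CDK6, and −0.28 for CDK6 in vehicle, all of other sign and none called. Leaving out 1 library gave uncalled values that crossed 0: in estradiol −0.13 to 0.061 for CCND1, −0.10 to 0.0080 for CDK4 and −0.080 to 0.35 for CDK6. In vehicle they were −0.0074 to 0.26 for CCND1, −0.027 to 0.15 for CCND3, −0.17 to 0.028 for CDK4, −0.25 to 0.46 for CDK6 and −0.12 to 0.25 for CDKN2C. In the difference of responses they were −0.074 to 0.13 for CDK4, −0.29 to 0.43 for CDK6, −0.22 to 0.033 for CDKN1A, −0.35 to 0.0073 for CDKN2C and −0.15 to 0.24 for CCNE1. At this depth CCND2 could not be tested.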
